A study of Mus musculus with 6 samples.

Results

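The genes described here are 10 genes of the insulin-like growth factor (IGF) system among the 32493 genes counted in neural stem cells (NSCs): the binding proteins *Igfbp2*, *Igfbp3*, *Igfbp4*, *Igfbp5*, *Igfbp6* and *Igfbp7*, the ligand *Igf1*, the receptor *Igf1r* and the adaptors *Irs1* and *Irs2*. They were chosen by name, with the fold changes of the same cko and ctrl libraries already known, so their differences between genotypes are given as a description and without a test. The cells came from the lateral ventricles of E14.5 mouse embryos on a C57BL/6J background, were cultured for 3 generations with EGF and bFGF, and were profiled by mRNA-seq to ask which genes differ when miR-151 is lost. Both genotypes were fl/fl for miR-151: cko littermates also had Emx1-IRES-Cre, whose Cre recombinase is expressed in the dorsal telencephalon, and ctrl littermates, called wt in the sample labels, had no Cre. The labels give brain as the tissue, and cells from outside the dorsal telencephalon would keep miR-151. Whether a library came from 1 embryo or from a pool was not given in the sources used here, so p-values measure only the spread between these libraries, which may be technical.

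IGF1 binds the receptor tyrosine kinase IGF1R, which phosphorylates the adaptors IRS1 and IRS2 and so engages PI3K, AKT and mTOR, a route to growth and survival in neural progenitors. IGFBP2 to IGFBP6 are secreted proteins that bind IGFs with high affinity and can withhold them from the receptor or carry them to it, whereas IGFBP7 binds IGFs weakly. The culture medium contained B27, a supplement whose formula includes insulin, a ligand of the closely related insulin receptor.

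Comparisons were made between ctrl libraries 1 and 3 and cko libraries 1, 2 and 3, with 17883796 to 23335736 counts each. The column of ctrl replicate 2 equalled the mean of the other ctrl columns, rounded up, in 32493 of 32493 genes, and entered no n. The floor of 3 counts lay at 0.129 to 0.168 CPM (counts scaled to library size), and covers only the error of counting. The ctrl libraries stood apart from each other. Between them 1340 of 16710 tested genes (8.02%) differed by more than 2-fold, and 596 (3.57%) were over 2-fold higher in ctrl library 3. The NSC markers fixed for this work were present in every library, with a summed level of 7520 to 8550 normalized CPM in ctrl and 8890 to 9570 in cko and 4 of 12 called higher and 2 lower. In contrast, 5 of 8 astrocyte markers were called lower in cko and 0 higher (summed level 2010 to 3040 CPM in ctrl and 833 to 1530 in cko). Of 11 oligodendrocyte lineage markers 7 were called lower and 2 higher, with summed levels of 3960 to 4620 CPM in ctrl and 3830 to 3960 in cko. Of 8 tested neuronal markers 2 were called higher and 1 lower (1270 to 1340 CPM in ctrl, 1420 to 1480 in cko). The 10 microglial markers summed to at most 1.44 CPM, with *Cx3cr1*, *Tmem119*, *Trem2* and *Itgam* at 0 in all libraries, and the endothelial list summed to at most 7.21 CPM, with *Cdh5* at 0. The summed level of the meningeal fibroblast list was 13.7 to 22.3 CPM in ctrl and 4.14 to 6.06 in cko, with 2 of 3 tested markers called lower. That of the choroid plexus list was 10.6 to 11.4 and 2.43 to 3.55 CPM, with 2 of 3 tested markers called lower. Without *Foxc1* and *Otx2*, the highest of each, the lists summed to 0.894 to 7.03 and 1.01 to 4.26 CPM over all libraries. At such levels a marker can pass the filter on low counts through ctrl alone, which was not checked for these calls. The mural list summed to 272 to 301 CPM in ctrl and 162 to 186 in cko, of which all but 1.56 to 2.97 CPM was *Notch3*, and 1 of its 3 tested genes was called lower. The part of these marker changes in the values below was not tested, and in bulk cultures fewer cells of a type and less RNA per cell cannot be told apart.

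All 10 genes passed the filter on low counts. In cko NSCs 8 of them had a negative and 2 a positive log2 fold change, against 50.3% negative over all tested genes. The genotypes did not overlap in 7 genes that were lower in cko, where 24.3% of all tested genes did the same, and in 1 that was higher, where 25.4% did. With size factors by median of ratios, 1 gene fewer was free of overlap (7 in all), and the share over all tested genes with these factors is not given here. With a 0.05 threshold on the edgeR p adjusted by Benjamini-Hochberg, *Igfbp5*, *Irs1* and *Irs2* were past it as lower (8.57% of all tested genes were) and 0 as higher (7.86%), with 3 and 0 in DESeq2 too. Other settings put up to 7 past it as lower, but some of these put more genes of all kinds past it. The 7 came without a filter on low counts, where 2237 of 30524 tested genes were lower, and with all 6 columns. With all 6 columns 2860 of 16322 tested genes were lower, or 2745 with a block for the replicate number. At the threshold of the study, a log2 fold change beyond 0.9 with an unadjusted p under 0.01, *Igfbp2*, *Igfbp5* and *Irs2* were past it as lower (4.17%) and none as higher (2.39%). Since the genes were chosen with this comparison known, these counts describe the list and nothing is read from them.

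**Figure D1:**
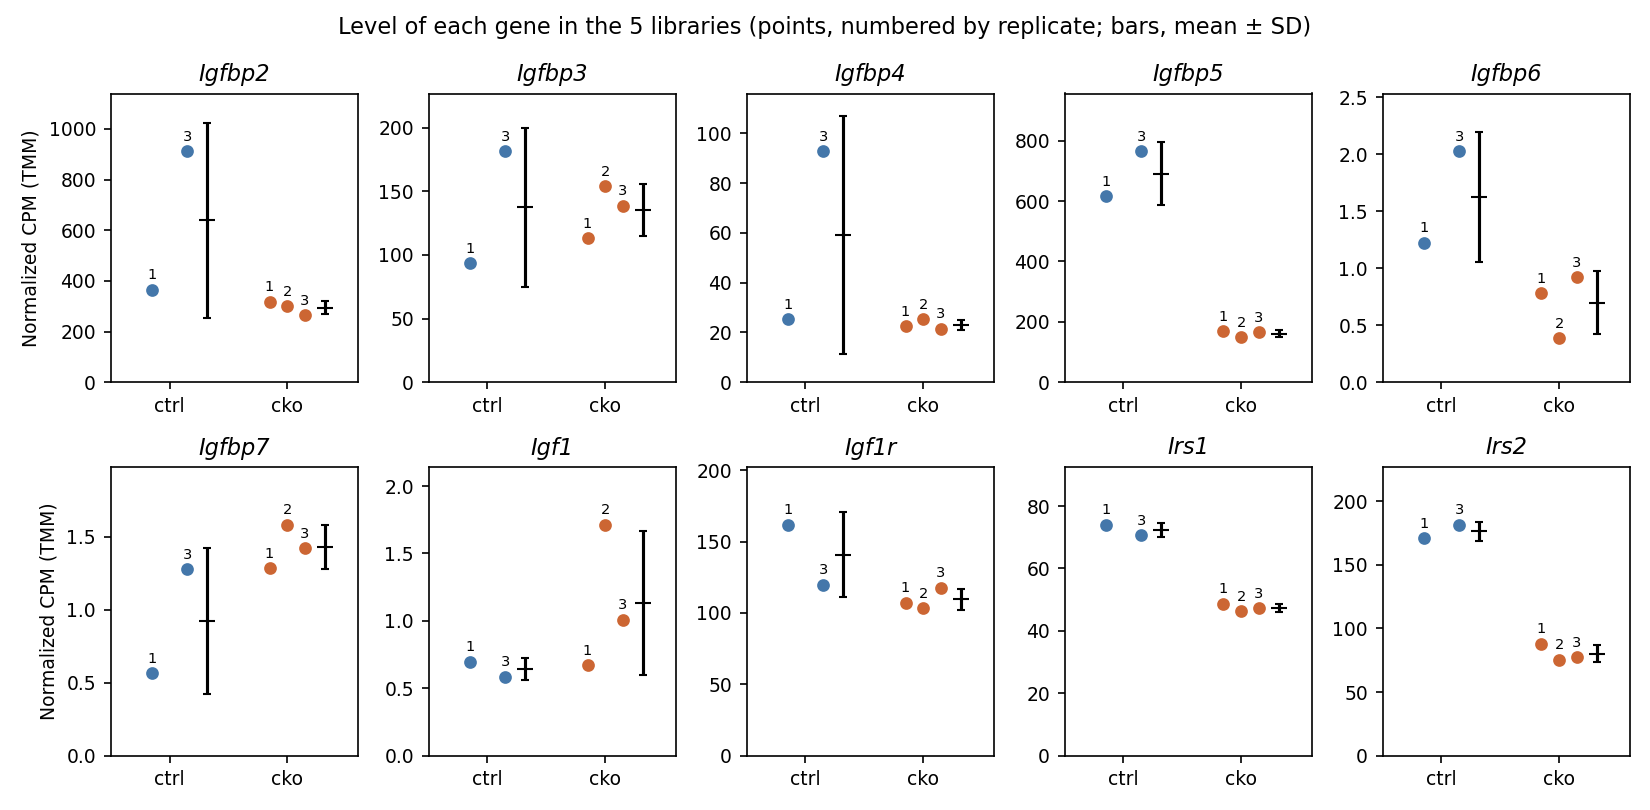
Normalized CPM (y axes, linear from 0) of each of the 10 genes in ctrl libraries 1 and 3 (blue) and cko libraries 1, 2 and 3 (orange), with the mean ± SD of each genotype as a bar. *Irs1* and *Irs2* show tight ctrl points above the cko points, *Igfbp5* shows ctrl points of 616 and 765 CPM far above its cko points, and *Igfbp2* and *Igfbp4* show 1 high ctrl point, library 3.

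*Igfbp5* (ENSMUSG00000026185, chromosome 1, 72857932 to 72874884, minus strand, GRCm38) had the largest difference of the 10. Its level was 616 and 765 normalized CPM in ctrl libraries 1 and 3, and 168, 149 and 165 in cko libraries 1, 2 and 3. Both ctrl libraries thus lay far above every cko library, and the mean fell from 691 ± 105 (SD, n = 2) to 161 ± 10.6 CPM (SD, n = 3), a level 4.295-fold lower. The fitted log2 fold change was -2.10 (standard error 0.11), and against ctrl library 1 or 3 alone it was -1.935 and -2.26. IGFBP5 is the most conserved of the family and binds extracellular matrix as well as IGFs.

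*Igfbp2* (ENSMUSG00000039323, chromosome 1, 72824503 to 72852474, plus strand) is the neighbour of *Igfbp5*. The pair lies tail to tail, 5457 bases apart, with 0 annotated genes between them. IGFBP2 is an abundant IGF binding protein of the developing brain. Its mRNA was measured at 365 and 912 CPM in ctrl and at 317, 301 and 265 CPM in cko NSCs. Every cko library was below every ctrl library, but ctrl library 3 lay 2.50-fold above ctrl library 1, a gap that 4.18% of tested genes exceeded in either direction. The log2 fold change was -1.12 (standard error 0.318) against both ctrl libraries, -0.31 against ctrl library 1 alone and -1.64 against ctrl library 3 alone.

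*Igfbp4* (ENSMUSG00000017493, chromosome 11, 99041244 to 99054392) encodes a binding protein that mostly restrains IGF action until the protease PAPP-A cleaves it. Its level was 25.3 and 92.8 CPM in ctrl libraries 1 and 3, and 22.5, 25.2 and 21.5 CPM in cko libraries 1, 2 and 3. Ctrl library 1 was level with cko library 2, and the separation of the genotypes rested on ctrl library 3. The log2 fold change was -1.35 (standard error 0.443) with both ctrl libraries, -2.02 with ctrl library 3 alone and -0.13 with ctrl library 1 alone. The gap between the ctrl libraries, 3.66-fold, was exceeded by 1.42% of tested genes. The promoter of *Igfbp4* holds the letters TATAAA 28 bases before the RefSeq start (GRCm38.p6, chr11:99041196-99041243, plus strand, shown with these letters in capitals), a match found within 250 bases before to 50 bases after a start in 15.7% of 27025 genes on either strand. *Igfbp6* was the other of the 10 to hold it, 148 bases before its start.
Igfbp4: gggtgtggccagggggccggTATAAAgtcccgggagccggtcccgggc

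*Igfbp3* (ENSMUSG00000020427, chromosome 11, 7206086 to 7213923), whose product is the main IGF carrier in blood, showed no separation. Its level was 93.4 and 181 CPM in ctrl and 113, 154 and 139 CPM in cko NSCs, so the ctrl libraries bracketed all cko libraries. The log2 fold change was -0.02 (standard error 0.258), and it was 0.54 against ctrl library 1 alone and -0.43 against ctrl library 3 alone. *Igfbp1*, its tail-to-tail neighbour at a distance of 3539 bases, had at most 5 counts in any library and was not tested.

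*Igfbp6* and *Igfbp7* were near the lower end of what the depth can show. *Igfbp6* (ENSMUSG00000023046, chromosome 15), whose product prefers IGF2 over IGF1, was measured at 1.22 and 2.025 CPM in ctrl and at 0.782, 0.385 and 0.918 CPM in cko NSCs, or 9 to 38 counts per library. All cko libraries were lower, and the fitted difference was -1.22 ± 0.457 (standard error) on the log2 scale. *Igfbp7* (ENSMUSG00000036256, chromosome 5) was measured at 0.567 and 1.28 CPM in ctrl and at 1.285, 1.58 and 1.42 CPM in cko NSCs, or 13 to 37 counts. Ctrl library 3 was level with cko library 1 (1.279 and 1.285 CPM), so the absence of overlap is smaller than 1 count. The log2 fold change of 0.66 (standard error 0.416) became 0.16 against ctrl library 3 alone and 1.34 against ctrl library 1 alone. *Igfbp7* overlaps the coding gene *Polr2b* on the opposite strand, and its few reads are uncertain because a strand-specific count is not stated.

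Levels per kilobase of exon allow the binding proteins to be set side by side. Summed over the 6 genes, the level was 337 and 703 CPM per kb in ctrl libraries 1 and 3 and 243, 244 and 222 CPM per kb in the cko libraries, lower in each cko library than in either ctrl library. *Igfbp2* made up most of this sum in every library, with 58.6% and 70.2% in ctrl and 70.8%, 66.7% and 64.6% in cko NSCs. The share of *Igfbp5* was 30.4% and 18.1% in ctrl and 11.5%, 10.1% and 12.4% in cko NSCs. *Igfbp3* moved the other way, from 8.84% and 8.24% to 14.9%, 20.2% and 19.9%, although its own level did not separate the genotypes. *Igfbp4*, *Igfbp6* and *Igfbp7* held at most 2.99%, 0.372% and 0.537% in any library. Shares of one sum depend on each other, so a lower share of *Igfbp5* raises the others.

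**Figure D2:**
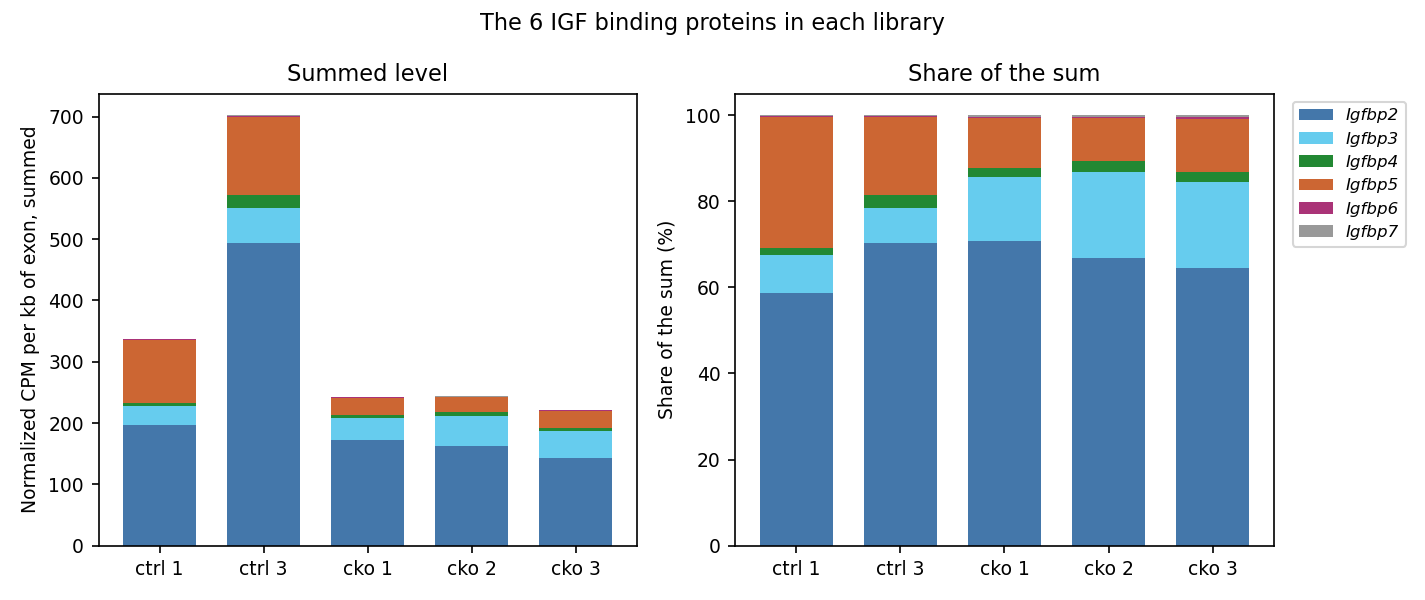
Left, normalized CPM per kb of exon of the 6 binding proteins stacked for each of the 5 libraries; right, the share of each in that sum in percent. The sum is 337 and 703 in ctrl and 222 to 244 in cko libraries, *Igfbp2* is the widest band throughout, and the *Igfbp5* band is narrower in cko.

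The ligand *Igf1* (ENSMUSG00000020053, chromosome 10, 87858265 to 87937042) was close to the detection limit. It was measured at 0.698 and 0.586 CPM in ctrl and at 0.671, 1.71 and 1.01 CPM in cko NSCs, with 11 to 40 counts per library. The genotypes overlapped, since cko library 1 lay between the ctrl libraries, and the log2 fold change was 0.82 (standard error 0.488). It was 0.38 without cko replicate 2, the highest library, and 0.37 with the replicate block. The gene is overlapped on the opposite strand by *Igf1os*. Markers of microglia, a known source of IGF1 in brain, summed to at most 1.44 CPM, as given above.

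*Igf1r* (ENSMUSG00000005533, chromosome 7, 67952827 to 68233668), the receptor that carries the signal of IGF1 and IGF2, was measured at 162 and 120 CPM in ctrl and at 107, 103.5 and 118 CPM in cko NSCs. The lower ctrl library, number 3, differed from the highest cko library by little (119.8 and 117.6 CPM). The log2 fold change was -0.36 (standard error 0.13), -0.56 against ctrl library 1 alone and -0.14 against ctrl library 3 alone. Here, unlike in *Igfbp2* and *Igfbp4*, ctrl library 1 was the high one.

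The adaptors separated the genotypes most evenly. *Irs2* (ENSMUSG00000038894, chromosome 8, 10984681 to 11008458) was measured at 171 and 181 CPM in ctrl and at 88.0, 75.3 and 77.2 CPM in cko NSCs. The ctrl level was 2.197-fold that of cko, and the fitted log2 difference of -1.14 ± 0.0886 (standard error) stayed between -1.22 and -1.09 in all 12 alternative fits. IRS2 is an adaptor whose loss in mice reduces brain growth.

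*Irs1* (ENSMUSG00000055980, chromosome 1, 82233101 to 82291416) was measured at 74.0 and 70.7 CPM in ctrl and at 48.7, 46.2 and 47.3 CPM in cko NSCs. Its log2 fold change of -0.61 (standard error 0.0743) stayed between -0.64 and -0.59 in the same 12 fits. *Irs1* thus had a smaller difference than *Irs2*, and both showed little spread between the ctrl libraries. These differed by 0.0663 (*Irs1*) and 0.0857 (*Irs2*) on the log2 scale, against a median of 0.226 over all tested genes. Within cko the log2 range was 0.0752 for *Irs1* but 0.225 for *Irs2*, beside a median of 0.232 over all tested genes. *Irs2* is overlapped on the opposite strand by the noncoding *9530052E02Rik*, which the table also counts, and *Irs1* by *Gm9747*, so reads of these pairs could be shared.

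Because *Irs1* and *Irs2* were lower together, their promoters were compared, in the RefSeq windows from 250 bases before to 50 bases after the start in GRCm38.p6, which matched all 10 genes. The longest stretches the windows of both share are 2 of 10 bases, GTCACGTGTT and TGTTTTGCTC, which overlap in both genes. The first holds CACGTG, the E-box letters bound by basic helix-loop-helix factors such as MYC, USF and TFE3. No other pair of promoters was compared, so how often the windows of 2 genes share 10 bases by chance is not known. The stretches below are written 5′ to 3′ on the strand of the gene with CACGTG in capitals. These letters lie 115 bases before the start in *Irs1* (chr1:82291515-82291574) and 44 bases before it in *Irs2* (chr8:11008934-11008993). The stretch of *Igfbp2* (chr1:72824318-72824377) is shown with them, with the letters 142 bases before the upstream one of its 2 RefSeq starts. The window of the other *Igfbp2* start did not hold CACGTG.
Irs1: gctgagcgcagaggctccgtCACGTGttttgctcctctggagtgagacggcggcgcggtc
Irs2: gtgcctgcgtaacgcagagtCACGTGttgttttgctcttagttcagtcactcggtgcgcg
Igfbp2: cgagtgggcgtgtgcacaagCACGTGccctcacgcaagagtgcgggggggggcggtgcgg

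These 3 of the 10 genes held CACGTG, which reads the same on both strands, and 8.09% of 27025 genes in the RefSeq set held it in a window of this length. The letters contain CG, and the windows that held them were rich in it, with 18 (*Igfbp2*), 28 (*Irs1*) and 41 (*Irs2*) CG pairs. The median over all promoters was 7, so the share of all genes is not a like background. Windows of the 10 genes without the letters had from 6 (*Igf1*) to 48 (*Igf1r*). The letters were chosen after the sequences were seen, and a match is not evidence of binding. TGTTTAC, a FOXO recognition sequence searched on both strands because FOXO factors are regulated by this pathway, was in the windows of 0 of the 10 genes and in 4.05% of all genes. Nothing about FOXO follows from its absence in these windows.

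**Figure D3:**
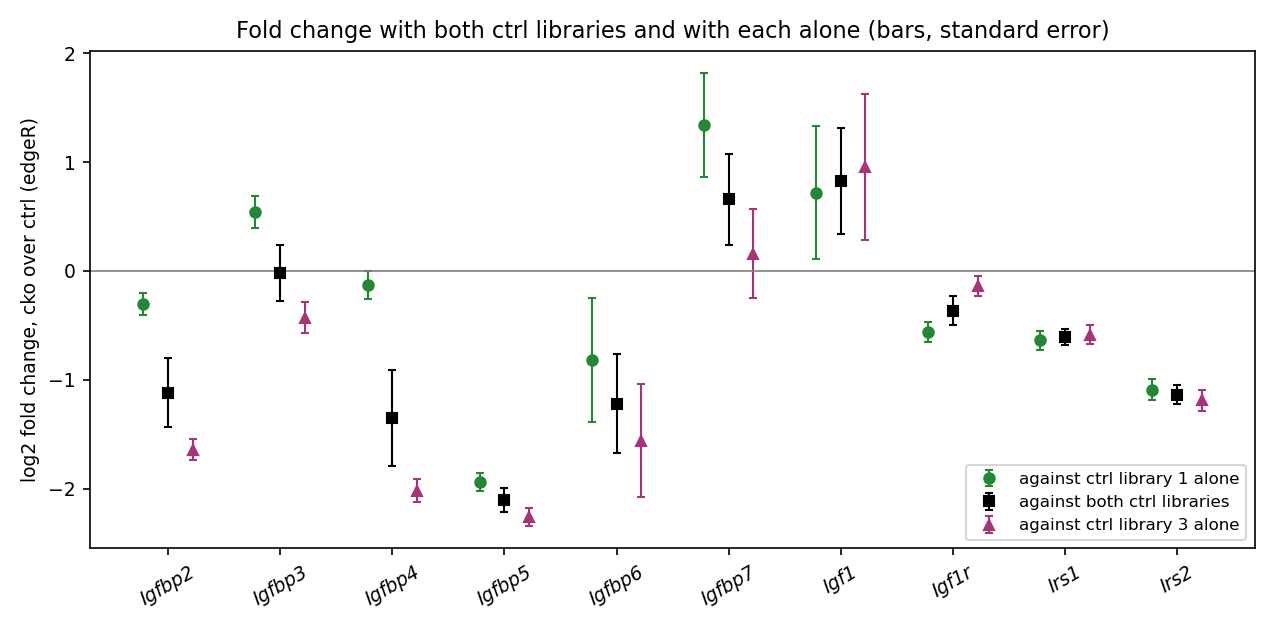
Fitted log2 fold change of cko over ctrl (y axis) for each of the 10 genes, against ctrl library 1 alone (green circles), both ctrl libraries (black squares) and ctrl library 3 alone (purple triangles), with standard errors as bars. The green and purple bars hold no spread between ctrl libraries, since a single ctrl library was assumed to vary like the cko libraries. Shorter green or purple bars therefore do not mean a more precise value. The 3 values lie close together for *Irs1* and *Irs2*, run from -1.935 to -2.26 for *Igfbp5*, spread widely for *Igfbp2* and *Igfbp4*, and straddle 0 for *Igfbp3*.

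The levels of the 10 genes per kilobase of exon covered a wide range. In ctrl NSCs the order ran from *Igfbp2* (346 ± 209 CPM per kb, SD, n = 2) through *Igfbp5* (115 ± 17.5), *Igfbp3* (43.9 ± 19.9) and *Irs2* (27.9 ± 1.17) to *Igfbp4* (13.4 ± 10.8), *Igf1r* (8.385 ± 1.77) and *Irs1* (7.91 ± 0.257). *Igfbp6* (1.46 ± 0.511), *Igfbp7* (0.764 ± 0.416) and *Igf1* (0.06484 ± 0.007985) came last. Of the 9 neighbouring pairs in this order, *Igfbp4* with *Igf1r* and *Igf1r* with *Irs1* overlapped between ctrl libraries. In cko NSCs *Igfbp3* (43.2 ± 6.61, n = 3) stood above *Igfbp5* (26.8 ± 1.76), and only *Igfbp4* and *Irs1* overlapped among neighbours. Exon lengths are unions over all annotated transcripts, so a gene whose long forms are little used, as can be the case for *Igf1* (9904 bases), is placed too low.

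Among all tested genes, the 3 whose centred log2 CPM profiles over the 5 libraries lay nearest to that of *Igfbp5*, the gene of widest range among the 10, were *Six5* (Euclidean distance 0.235), *Pdlim4* (0.283) and *Sox10* (0.288), the last of which is also on the oligodendrocyte lineage list. In all, 234 genes lay within a distance of 1. These are the libraries of the genotype comparison, so a near profile can mean no more than a similar difference between genotypes.

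The rest of the pathway was read from a list of 68 genes from ligands to mTOR and FOXO, which held textbook members whether or not they moved. The table counted 67 of them and 59 were tested. By the same edgeR threshold 3 rose in cko NSCs and 3 fell, or 5.08% each way, below the shares of all tested genes (7.86% and 8.57%). The median log2 fold change of the list was -0.0466, beside -0.00264 over all tested genes. This list too was chosen with earlier results of these data known.

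Other ligands were barely detected. *Igf2* had 3 and 2 counts in ctrl libraries and 1, 0 and 6 in cko libraries, and *Ins1* at most 2 counts. The insulin receptor gene *Insr* was expressed at 159 and 165 CPM in ctrl and 138, 146 and 147 CPM in cko NSCs. Its cko libraries were all lower, but the log2 fold change of -0.17 ± 0.0716 (standard error) did not pass the test (edgeR adjusted p = 0.146). *Igf2r*, which clears IGF2 from the cell surface, differed by 0.07 ± 0.111 (standard error) on the log2 scale (edgeR adjusted p = 0.718), with overlapping genotypes.

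*Grb14*, an adaptor that inhibits the insulin receptor, rose most. Its level was 7.94 and 7.09 CPM in ctrl and 14.03, 19.1 and 17.9 CPM in cko NSCs, so that every cko library was higher. The log2 fold change was 1.18 ± 0.176 (standard error), with an adjusted p of 0.00633 by edgeR. Beside it, *Gab1*, a docking protein for PI3K, rose from 220 ± 22.9 (SD, n = 2) to 314 ± 12.4 CPM (SD, n = 3), or 0.51 on the log2 scale (edgeR adjusted p = 0.011). *Pik3cb*, a catalytic subunit of PI3K, rose by 0.35 on that scale (edgeR adjusted p = 0.0397). *Grb14* kept its call without each library in turn and with the replicate block. *Gab1* lost it without cko replicate 2 or 3, and *Pik3cb* without ctrl replicate 3, without each of the cko replicates and with the block.

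*Htra1* fell most among the called genes. It encodes a secreted protease that has an IGFBP-type domain and cleaves IGFBP5, and it was measured at 117 and 99.9 CPM in ctrl and at 59.8, 44.1 and 42.3 CPM in cko NSCs (log2 fold change -1.155 ± 0.154 by edgeR, adjusted p = 0.00446). *Inppl1*, which encodes the phosphatase SHIP2 that removes the lipid product of PI3K, fell from 186 ± 5.31 (SD, n = 2) to 122 ± 3.66 CPM (SD, n = 3), or -0.60 as the log2 fold change (edgeR adjusted p = 0.00278). *Rictor*, which encodes a subunit of an mTOR complex, fell by 0.32 on the log2 scale (edgeR adjusted p = 0.0455), and its call was lost without ctrl replicate 1, without each of the cko replicates and with the replicate block.

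By role, none of the 12 tested outputs of the pathway, which include the FOXO factors, GSK3 and the S6 kinases, was called, nor was either tested receptor. This held for the fit as described and not for all others. *Foxo3* and *Foxo6* were called lower in DESeq2, without a filter, and with all 6 deposited columns with or without the replicate block. *Eif4ebp1* was called lower without a filter and with the block and all 6 columns. *Gsk3b* was called higher with all 6 columns, with or without the block. With all 6 columns and no block, *Gsk3a* was also called higher and *Insr* lower. Calls of outputs changed as well in the fits with 1 ctrl library left. Of 10 PI3K and AKT genes 1 was called higher, and of 10 mTOR genes 1 was called lower. This count depends on the libraries. With ctrl replicate 1 left out, 5 pathway genes were higher and 8 lower, and with all 6 deposited columns, the averaged one included, 9 and 13.

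The genes that entered when ctrl replicate 1 was left out include several that were high in ctrl library 3, as *Igfbp2* and *Igfbp4* were. In the list, 6 of 59 genes (10.2%, beside 3.57% of all tested genes) were over 2-fold higher in ctrl library 3 than in ctrl library 1, namely *Stc1*, *Stc2*, *Grb10*, *Socs1*, *Foxo6* and *Eif4ebp1*. Among the 10 genes first described these were *Igfbp2*, *Igfbp4* and *Igfbp7*. *Socs1* was low, at 0.305 and 0.799 CPM in ctrl and at 0.95, 0.856 and 0.321 CPM in cko NSCs. The gap between the ctrl libraries is therefore uncertain for *Socs1*, as for *Igfbp7*. *Stc2*, whose product stanniocalcin-2 inhibits the PAPP-A protease that cleaves IGFBP4, was at 9.82 and 48.3 CPM in ctrl and at 7.04, 9.42 and 10.1 CPM in cko NSCs. *Grb10*, an imprinted inhibitor of the insulin and IGF1 receptors, was at 5.89 and 22.0 CPM in ctrl and at 2.68, 4.88 and 5.51 CPM in cko NSCs. Ctrl library 1 thus lay beside the cko libraries in both, and neither passed the test (edgeR adjusted p = 0.0771 and 0.071), although both did with the replicate block. These 2 genes were named after their values were seen.

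**Figure D4:**
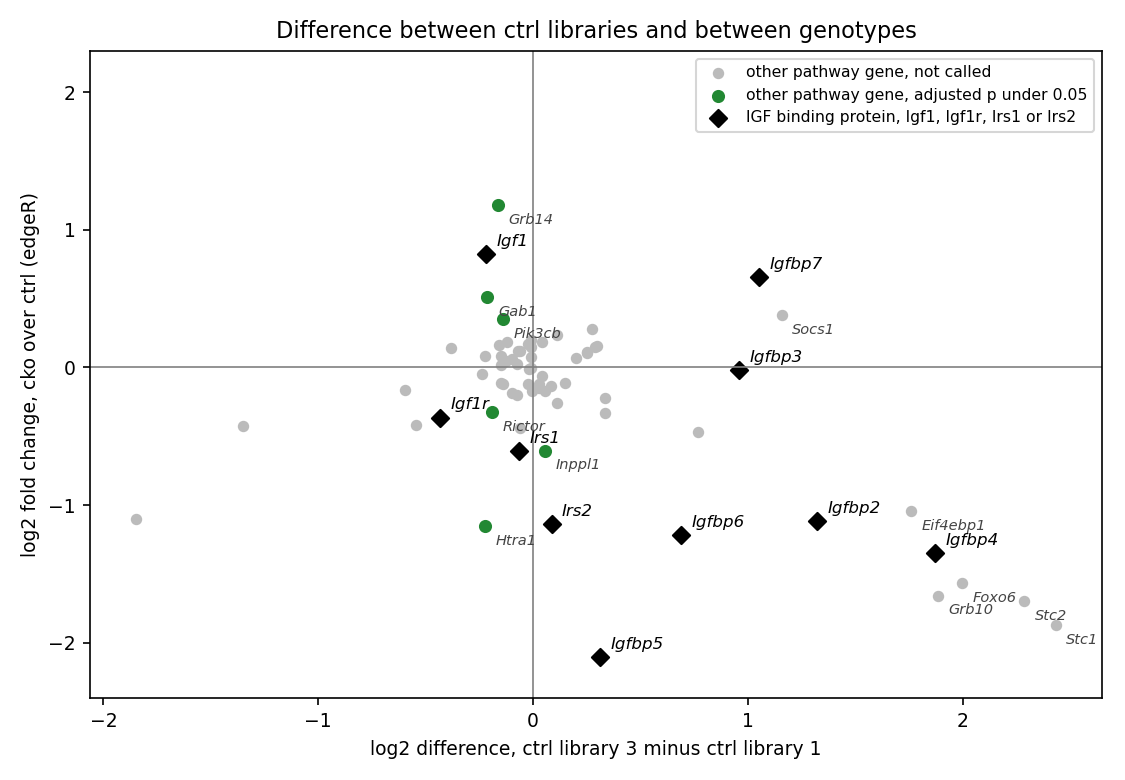
Log2 difference of ctrl library 3 minus ctrl library 1 (x axis) against the log2 fold change of cko over ctrl (y axis) for the 10 genes (black diamonds) and the 59 other tested pathway genes (green where the adjusted p was under 0.05, grey otherwise). *Igfbp5*, *Irs1*, *Irs2*, *Htra1* and *Inppl1* sit low and closer to x = 0, whereas *Igfbp2* and *Igfbp4* sit at lower right with *Stc1*, *Stc2*, *Grb10*, *Foxo6* and *Eif4ebp1*; both axes use the ctrl libraries, so they are not independent.

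The N-terminal domain of the binding proteins also occurs in other secreted or membrane proteins, and 13 such genes were read out. Of these, 8 passed the filter on low counts, 1 of them (*Ccn4*, below) only through its ctrl counts. Among the other 7, by the edgeR threshold above, 4 fell and 0 rose. In DESeq2 4 fell and 0 rose, and 0 rose at an unadjusted edgeR p under 0.05. The share of all tested genes that fell was 8.57%, and the median log2 fold change of the 7 was -0.774. The list was chosen with earlier results of these data known, so nothing is read from these counts. *Htra1* is described above. *Htra3*, a related protease, was at 30.3 and 20.2 CPM in ctrl and at 11.3, 10.7 and 11.1 CPM in cko NSCs (log2 fold change -1.20 ± 0.177 by edgeR, adjusted p = 0.00615). *Crim1*, a membrane protein that binds BMPs, fell from 34.98 ± 7.14 (SD, n = 2) to 18.3 ± 1.47 CPM (SD, n = 3), or -0.94 on the log2 scale (edgeR adjusted p = 0.00742).

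*Ccn1*, a matricellular protein, fell by 0.77 on the log2 scale (standard error 0.184, edgeR adjusted p = 0.0306). *Ccn4* had 12 and 12 counts in ctrl and 0, 0 and 2 in cko libraries, a ratio of 18.1 after scaling to library size. Since the filter admitted it through the genotype in which it was higher, its difference is given without a test. Leaving out ctrl replicate 1 or any cko replicate left *Htra1*, *Htra3* and *Crim1* as the called genes among these 7, as did the replicate block. The 5 genes not tested had at most 14 counts in any library, and 3 tested genes, *Igfbpl1*, *Kazald1* and *Ccn6*, did not pass the test.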

How the data were processed

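RNA-seq of E14.5 NSCs was deposited by the authors as raw counts per Ensembl gene, without normalization, for 3 ctrl and 3 cko samples. The authors filtered reads with NGSQC and aligned them to mm10 with HISAT2 (the sample labels name GRCm39). The counting tool, the annotation and the strand setting were not given in the sources used here, and neither was a batch. The 10 genes and all lists were chosen with earlier results of these data known. Of the 32493 IDs, 31829 had a symbol, position and exon length in GENCODE M21 (GRCm38), and the other 664 held 0.223% to 0.342% of a library's counts. In R 4.3.3, edgeR 4.0.16 filtered low counts by genotype (16710 genes tested), normalized by TMM (factors 0.990 to 1.006) and ran the quasi-likelihood test, two-sided, over all tested genes. Standard errors were taken from the fold change and the F statistic. Log2 CPM profiles used a prior count of 2. Pathway genes were named by a fixed rule: *Igf2*, *Insr*, *Igf2r*, up to 6 called genes in each direction by fold change, and every called gene with an IGFBP-type domain. The steps were tested on simulated data. Alternatives were DESeq2 1.42.0, other size factors, filters and thresholds, leaving out each library, all 6 columns and the replicate block. Promoters came from RefSeq, and figures were drawn with matplotlib 3.10.9. The sequence of miR-151 and its sites were not used here.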

Additional observations from a re-analysis of the deposited data

How the results depend on the processing

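Of the 10 genes, 9 kept the direction of their log2 fold change in every alternative that tested them, and *Igfbp3* changed it in 3 of 12, ranging from -0.43 to 0.54. Without ctrl replicate 1 or 3 the values of *Igfbp2* were -1.64 and -0.31, and those of *Igfbp4* -2.02 and -0.13. At the threshold of the study (log2 fold change beyond 0.9, unadjusted p under 0.01), 399 genes were called higher and 696 lower, against 1314 and 1432 at an adjusted p under 0.05, and 1 pathway gene in each direction instead of 3. Of the 10, 2 to 3 were higher and 7 to 9 free of overlap over all alternatives. The 9 came only in fits without ctrl replicate 1, ctrl replicate 3 or cko replicate 1. With a library left out, any gene is more easily free of overlap. The shares over all tested genes in these alternatives are not given here, so nothing is read from this range. DESeq2 called 6 pathway genes lower. Without a filter, 2237 genes in all and 10 pathway genes were called lower. With all 6 columns the counts were 2797 and 2860 genes and 9 and 13 pathway genes. Leaving out single replicates gave 317 to 1810 genes higher, 416 to 2062 lower, 1 to 5 pathway genes higher, 2 to 8 lower and 3 to 4 IGFBP-domain genes lower. With 1 ctrl library left, it was assumed to vary like the cko libraries. The lowest totals came without cko replicate 2 (317 and 416), then without cko replicate 3 (336 and 457) and cko replicate 1 (853 and 907). The cause was not tested.

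Replicate numbers are shared by the genotypes, but nothing ties them to a litter or day. Deviations from the genotype means correlated across genes at 0.143 (number 1) and 0.0507 (number 3). The deviations of ctrl libraries 1 and 3 are exact opposites, so these values are not independent. The crossed pairs mirror them, at -0.0507 (ctrl 1 and cko 3) and -0.143 (ctrl 3 and cko 1). With the replicate block, 918 genes were higher and 1065 lower, 5 pathway genes (*Stc1*, *Stc2* and *Grb10* added) and 3 IGFBP-domain genes were lower, *Igfbp2* and *Igfbp4* came past the threshold, and with the block and all 6 columns the counts were 2604 and 2745 genes and 6 and 11 pathway genes. The block takes the difference from numbers 1 and 3 only. Depth limits *Igf1*, *Igfbp6* and *Igfbp7*, which had at most 40 counts in any library.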
